A study of Mus musculus with 6 samples.

Results

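Granins and the enzymes that process neuropeptides are the cargo and the machinery of dense-core granules, the vesicles in which neuroendocrine cells store peptides until a stimulus releases them. Chromogranins and secretogranins are acidic proteins that aggregate in the trans-Golgi network and help to form the granule. Proprotein convertases cleave precursors at pairs of basic residues, carboxypeptidase E removes the basic residues left at the new end, and peptidylglycine monooxygenase amidates the peptide. The set held 10 genes, *Chga*, *Chgb*, *Scg2*, *Scg3*, *Scg5*, *Vgf*, *Pcsk1n*, *Pcsk1*, *Cpe* and *Pam*, out of 26656 genes in the deposited table, and all 10 were found by their symbols. It was chosen by function with the values of the NPM1 KD and CTR libraries already known, so the comparison of both conditions is given for the 10 genes as a description, without a test.

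The libraries came from N2a cells, a mouse neuroblastoma line with a wild-type genotype label, in a single line of cells with one shRNA construct. NPM1 KD cells were transfected with pLKO.1-shNpm1, which targets *Npm1*, and CTR cells with pLKO.1-shCTR, a non-target construct in the same backbone. Puromycin selection (9.3 µg/ml) began 24 h after transfection in the knockdown experiment, and RNA was taken at 72 h in both groups (3 days in vitro). There were 3 libraries per group by the sample labels, while the treatment text speaks of 2 biological replicates, so the spread given here is that between these libraries.

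Expression was read as the authors' regularized log (rlog) value, which is on the log2 scale, is normalized for library size and pulls genes with few reads towards their mean. The values of 1 or more had been rounded to whole numbers before deposit. A step of 1 is therefore the smallest difference visible in a single library, and a difference between group means can be off by up to 1 on the log2 scale in either direction. The depth of single libraries is not known. The mean normalized counts given by the authors, each a mean over the 6 libraries, summed to 841220. Tests used the 5752 genes whose rlog values averaged 3.32 or more, and these had a median count of 28.4. *Npm1* (ENSMUSG00000057113) fell from 10 in every CTR library to 8 in every NPM1 KD library (difference −2, SE 0.33, 3 libraries per group, adjusted p = 3.23e-06 by limma). Its values did not vary within a group, so this SE comes from the settings of the fit.

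Of 14 neuroblast and neuronal markers listed for the line, 9 passed the filter on low values and 5 did not. These 5, named after their values were seen, were the transcription factors *Phox2a* and *Gata3* and the catecholamine enzymes *Ddc*, *Th* and *Dbh*. Their mean normalized counts were 1.42 for *Phox2a*, 2.16 for *Ddc*, 2.43 for *Th*, 3.55 for *Dbh* and 7.49 for *Gata3* (means over the 6 libraries). Of the markers of other cell types, 2 of 4 endothelial, 3 of 4 astrocyte, 3 of 5 microglial and 3 of 6 fibroblast markers were listed at 0 in every library. The others of these lists were below the filter too. Their highest mean normalized count was 2.66 (*Pecam1*, endothelial), above that of 3 of the 5 low line markers. The summed level of each of these lists, 2 to the power of the rlog value, did not exceed 4.25 in any library. A further list, of pancreatic or pituitary endocrine markers, had a summed level of 32 in every library. There *Gh* passed the filter with a mean normalized count of 34.8, and the other 5 markers were at 0. Of the 10 granule genes, 9 had reads, 8 passed the filter on low values, and *Pcsk1* was listed at 0 throughout. The genes lie on 8 chromosomes. In the GENCODE annotation of GRCm38, which is not the GRCm39 build named in the submitters' processing notes, 8 of the 10 share no exon bases with another gene. The exceptions are *Pcsk1n*, whose neighbour *Eras* had a mean normalized count of 0, and *Pam*, whose neighbour *B230216N24Rik* had one of 0.334.

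Several granin genes are known for a cyclic AMP response element in the proximal promoter, the palindrome TGACGTCA bound by CREB and its relatives. The RefSeq promoter windows in GRCm38.p6, 250 bases before to 50 after the transcript start, were searched for it on both strands, as these genes are compared as a group. Windows were found for 8 of the 10 genes, and none was given for *Vgf* and *Cpe*. The full palindrome stood in 3 of these, *Scg2*, *Chgb* and *Pcsk1*, against 1.79% of all 32851 windows. The 6-base core TGACGT, which every full palindrome also holds, stood in 5 of the 8, *Chga* and *Scg5* being the others, against 7.51% of all windows. The 120 bases before the start are shown for the 3 granins with the lowest NPM1 KD values relative to CTR, for *Scg3*, which has no core, and for *Pcsk1*, which has the palindrome and no reads. They lie at chr2:132781522-132781641 on the plus strand (*Chgb*), chr1:79440027-79440146 on the minus strand (*Scg2*), chr12:102554821-102554940 on the plus strand (*Chga*), chr9:75684057-75684176 on the minus strand (*Scg3*) and chr13:75089737-75089856 on the plus strand (*Pcsk1*). Each is written 5′ to 3′ on the strand of the gene, and capitals mark the core or palindrome.
Chgb: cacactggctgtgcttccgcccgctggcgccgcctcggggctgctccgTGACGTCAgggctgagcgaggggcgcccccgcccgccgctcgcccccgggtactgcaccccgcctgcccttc
Scg2: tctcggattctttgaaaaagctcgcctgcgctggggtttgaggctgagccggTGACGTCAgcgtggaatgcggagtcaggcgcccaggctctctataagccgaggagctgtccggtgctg
Chga: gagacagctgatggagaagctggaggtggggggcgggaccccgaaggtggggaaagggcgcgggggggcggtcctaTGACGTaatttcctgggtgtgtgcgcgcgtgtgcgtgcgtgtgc
Scg3: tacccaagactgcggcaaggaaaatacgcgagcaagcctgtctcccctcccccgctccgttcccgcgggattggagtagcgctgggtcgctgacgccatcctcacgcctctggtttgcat
Pcsk1: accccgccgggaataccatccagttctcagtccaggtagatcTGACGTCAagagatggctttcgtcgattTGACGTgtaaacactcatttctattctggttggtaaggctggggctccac

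Counted from the RefSeq transcript start, the palindrome begins at −72 in *Chgb*, at −68 in *Scg2* and at −78 in *Pcsk1*. A separate core begins at −50 in *Pcsk1*. In the GENCODE annotation of GRCm38, *Chgb* begins further upstream (chr2:132781278), as does *Scg2* on the minus strand (chr1:79440120). The palindromes of *Chgb* and *Scg2* lie inside these gene bounds. The core of *Chga* begins at −44. In *Scg5* the core begins at −175, outside the stretch shown for the other genes, with another from 40 to 45 after the start. Among the other motifs searched on both strands, TATAAA stood in the window of 1 of the 8 genes, *Chga* (13.6% of all windows). There it lies from 6 to 11 after the start. GGGCGG stood in 6 (35.7% of all windows) and CAGCTG in 3 (16.3% of all windows). A match is a description of these letters and not of binding.

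The chromogranins and *Scg2* had lower expression in each NPM1 KD library than in any CTR library. *Chgb* (ENSMUSG00000027350, chromosome 2) encodes chromogranin B, an abundant granule matrix protein. Its rlog values were 8, 8 and 7 in CTR, while all 3 NPM1 KD libraries stood at 6, and the groups did not overlap. The group means were 7.67 ± 0.58 and 6 ± 0 (SD, n = 3 per group), a difference of −1.67 on the log2 scale that rounding leaves between −2.67 and −0.67.

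*Chga* (ENSMUSG00000021194, chromosome 12) encodes chromogranin A, the granin most used as a marker of neuroendocrine cells and the precursor of catestatin and vasostatin. All 3 CTR libraries stood at 7, and the NPM1 KD values were 5, 6 and 6. NPM1 KD replicate 1 was the lowest, and there was no overlap. The means were 7 ± 0 and 5.67 ± 0.58 (SD, n = 3 per group), and their difference was −1.33, with a span of −2.33 to −0.33 from rounding.

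*Scg2* (ENSMUSG00000050711, chromosome 1) encodes secretogranin II, the precursor of secretoneurin. It stood at 7 in every CTR library and at 6 in every NPM1 KD library, a difference of −1 that rounding leaves between −2 and 0. The unrounded means could therefore be almost equal, with NPM1 KD still below CTR if values were rounded to the nearest number. The same 6 values relative to the gene's mean were found in 172 other tested genes.

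**Figure D1:**
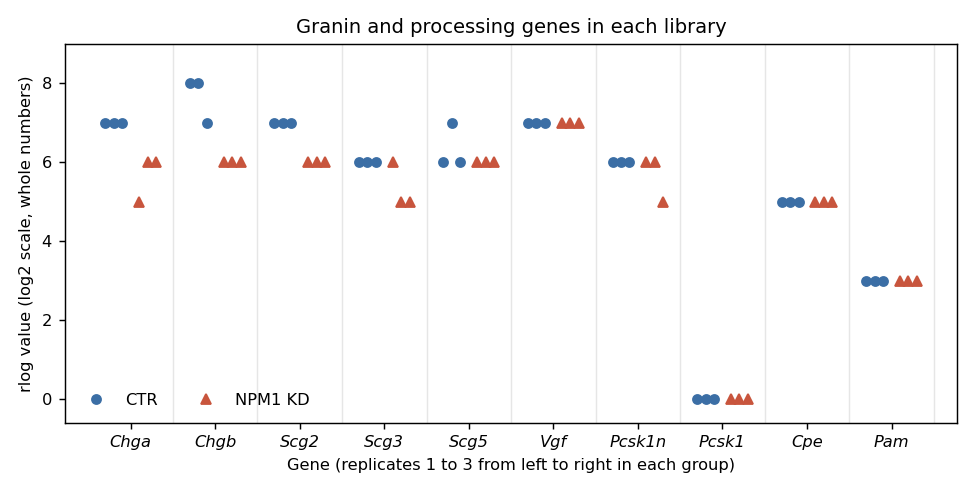
The rlog value (log2 scale, whole numbers for values of 1 or more) of the 10 genes in each library, with CTR as circles and NPM1 KD as triangles. *Chga*, *Chgb* and *Scg2* are lower in all 3 NPM1 KD libraries than in any CTR library, *Vgf*, *Cpe* and *Pam* have one value each, and *Pcsk1* is at 0.

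Of the 10 genes, 3 were thus lower without overlap and 0 were higher without overlap. Over all 5752 genes tested, 3.41% were lower and 2.19% were higher without overlap between the groups. Since the genes were picked with these values known, these shares stand here for reference, and nothing is read from the members' count. The difference of *Chgb* was shared or exceeded in size by 7 of the tested genes on the lower side (0.122%), counting itself, that of *Chga* by 25 (0.435%) and that of *Scg2* by 218 (3.79%).

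The remaining granins showed smaller differences or none. *Scg3* (ENSMUSG00000032181, chromosome 9) encodes secretogranin III, which binds chromogranin A and cholesterol-rich granule membranes. All CTR values were 6 and the NPM1 KD values were 6, 5 and 5, so NPM1 KD replicate 1 overlapped with CTR. The difference of −0.67 (span −1.67 to 0.33) became −1 without that replicate.

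*Scg5* (ENSMUSG00000023236, chromosome 2) encodes the chaperone of the proprotein convertase *Pcsk2*. CTR replicate 2 stood at 7 and the other 5 libraries at 6. Its difference of −0.33 (span −1.33 to 0.67) was 0 without that library.

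*Vgf* (ENSMUSG00000037428, chromosome 5) encodes a nerve growth factor-inducible granin that is cleaved into several peptides. It stood at 7 in all 6 libraries, and any difference below the rounding was not detectable. The span left by rounding is −1 to 1, so the data do not show whether *Vgf* moved with *Chgb* and *Chga* to a smaller extent. Its mean normalized count was 132, near the 143 of *Chgb* and the 125 of *Scg2*, so that a low read number did not set it apart from these.

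*Pcsk1n* (ENSMUSG00000039278, chromosome X) encodes proSAAS, a granin-like inhibitor of the convertase *Pcsk1*. NPM1 KD replicate 3 stood at 5 and the other 5 libraries at 6. Its difference of −0.33 (span −1.33 to 0.67) was 0 without that library.

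**Figure D2:**
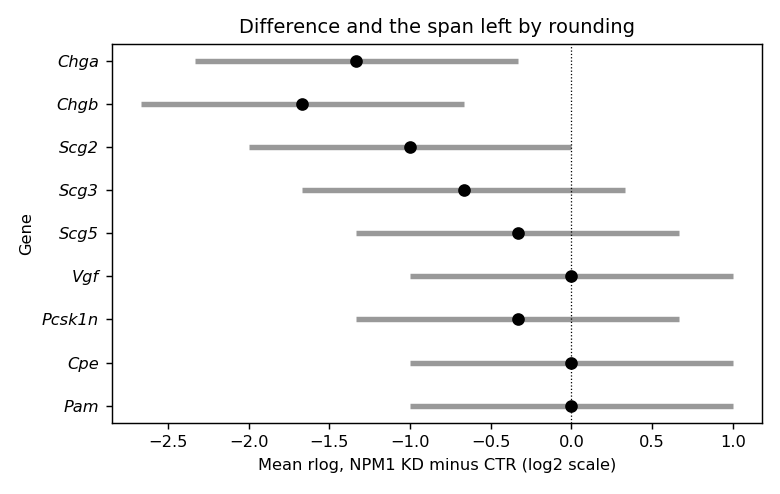
Difference of the mean rlog values, NPM1 KD minus CTR (log2 scale, n = 3 per group), for the 9 genes with reads. Points are differences of the deposited values and grey bars the span that rounding leaves, which lies wholly below 0 for *Chgb* (−2.67 to −0.67) and *Chga* (−2.33 to −0.33) and reaches 0 for *Scg2*.

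The processing enzymes did not differ in the deposited values. *Cpe* (ENSMUSG00000037852, chromosome 8), carboxypeptidase E, stood at 5 in all 6 libraries, with a mean normalized count of 27.7. *Pam* (ENSMUSG00000026335, chromosome 1), the amidating monooxygenase, stood at 3 in all 6 libraries, with a mean normalized count of 7.71 that left it below the filter. *Pcsk1* (ENSMUSG00000021587, chromosome 13), the convertase that opens many prohormones, was listed at 0 in every library with a mean normalized count of 0, and no comparison can be made for it. At the mean normalized counts, counting alone gives a library an error on the log2 scale of about 0.12 for *Chgb*, 0.15 for *Chga*, 0.27 for *Cpe* and 0.52 for *Pam*, if these counts are taken as reads.

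Over the 8 genes that passed the filter, the median difference was −0.5, against 0 over all 5752 genes tested, and over the 9 genes with reads it was −0.33. In all, 6 of the 10 genes had a lower mean in NPM1 KD, 3 had one value throughout, 0 had a higher mean and 1 was at 0. These summaries rest on values known when the genes were picked and are not independent evidence of a direction.

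**Figure D3:**
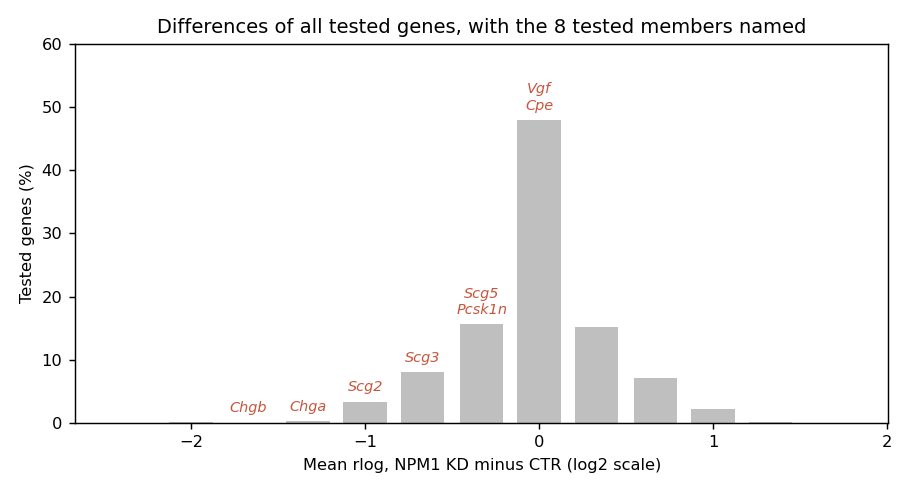
Share of the 5752 tested genes (%) at each difference of mean rlog, NPM1 KD minus CTR (log2 scale), with the 8 tested granin and processing genes named above the bar they belong to. The bar at 0 holds 48.0% of the tested genes, with *Vgf* and *Cpe*. *Chgb* and *Chga* stand above bars of 0.0348% and 0.313%.

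The pattern of *Chgb* across the 6 libraries, each value minus the mean of the gene, was found in 1 other tested gene. This was *Fn1*, fibronectin, whose CTR values were 6, 6 and 5 and whose NPM1 KD values were all 4. The pattern of *Chga* was found in 3 others. *Vim*, an intermediate filament gene, had 9 in each CTR library and 7, 8 and 8 in the NPM1 KD libraries, *Ldha*, a glycolytic enzyme, had 10 and then 8, 9 and 9, and *Tppp3*, a tubulin-binding protein, had the very values of *Chga*. Likeness here is equality of rounded values over 6 libraries, and 2310 genes have one value in all of them.

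The lower granin values went along with lower values of some general markers of the line. *Prph* (peripherin) and *Stmn2* (stathmin-2) stood at 9 in each CTR and at 8 in each NPM1 KD library, *Tubb3* (a neuronal tubulin) at 8 and 7, and *Gap43* (a growth cone protein) at 7 and 6. These 4 of the 9 tested line markers were lower without overlap and 0 were higher, against 3.41% and 2.19% of all 5752 genes tested. Below the filter, *Phox2a* was higher without overlap (0.30 to 0.38 in CTR, 0.41 to 0.54 in NPM1 KD). Each of the 4 missed the threshold (difference −1, adjusted p = 0.0791 by limma). Without the limit on the variance all 4 were called lower, as were 3.09% of all tested genes. Without the trend all 4 were too, as were 3.79%. Limma called 0 line markers. By unadjusted p (threshold 0.05) these 4 were lower and 0 higher, against 464 and 349 of all 5752 genes tested. Of the 9 tested line markers, 5 had a lower mean in NPM1 KD, 1 a higher and 3 an equal one. The summed level of the 14 markers was 2160 to 2390 in CTR and 1590 to 1620 in NPM1 KD. The gap lay in these 4, which were set apart for their lower values, so it is no separate evidence. They summed to 1408 in each CTR and 704 in each NPM1 KD library. Each gene was 1 step of the rounding lower, a difference that rounding leaves between −2 and 0. The other 10 summed to 753 to 977 in CTR and 881 to 913 in NPM1 KD. The part of the neuronal markers in the granin values was not tested. In bulk RNA, fewer cells with a transcript and less of it per cell cannot be told apart.

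The other genes of the granule pathway were taken from 4 lists put together by known function and tested with limma's moderated test over all genes. Over the whole table this test called 24 genes lower (0.417%) and 4 higher (0.0695%) at an adjusted p below 0.05. By unadjusted p the counts were 464 lower and 349 higher of the 5752 genes tested. These are the reference for the counts by unadjusted p in the lists. The calls depended on the fit, with 5 to 9 lower and 0 to 2 higher when any one of the 6 libraries was left out, and with 178 lower and 123 higher without the limit on the variance. In the 4 lists 0 genes were called in either direction. The largest differences there, −1 for *Npy* and *Isl1* without spread in either group, had an adjusted p of 0.0791 by limma. A step of 1 in every library thus missed the threshold for these genes. The 0 calls therefore do not show that the lists were unchanged.

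The list of other processing enzymes and their cofactors had 17 genes, of which 15 had reads and 6 were tested. None was called by limma or by unadjusted p, and the median difference was 0. *Cpd*, carboxypeptidase D of the trans-Golgi network, stood at 4, 4 and 3 in CTR and at 3 in each NPM1 KD library (−0.67, adjusted p = 0.47 by limma). *Ctsl*, cathepsin L, was 7 everywhere except for a 6 in NPM1 KD replicate 2. *Atox1*, a copper chaperone, was 8 everywhere except for a 7 in CTR replicate 1. *Cyb561*, the granule cytochrome that supplies electrons for amidation, stood at 6 throughout. *Pcsk2*, the convertase that *Scg5* assists, had a mean normalized count of 1.96 and was not tested.

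Among 56 neuropeptide and peptide hormone precursors, 55 were in the table, 34 were at 0 in every library and 5 were tested. *Npy*, neuropeptide Y of sympathetic neurons, stood at 5 in each CTR and at 4 in each NPM1 KD library without overlap (difference −1, SE 0.33, 3 libraries per group, adjusted p = 0.0791 by limma). *Sct*, secretin, was 5 in all CTR libraries, with NPM1 KD values of 5, 4 and 4 (−0.67, adjusted p = 0.33 by limma). *Ghrl*, ghrelin, was 3 in all CTR libraries, with NPM1 KD values of 4, 3 and 4 (0.67, adjusted p = 0.47 by limma). *Adm2*, a precursor of the calcitonin family, stood at 4 throughout. None was called by limma, and the median difference was 0. By unadjusted p 2 of the 5 were lower and 0 higher, against 464 and 349 of all 5752 genes tested. *Npy* was called when the variance had no lower limit or no trend with intensity, the fits that called 3.09% and 3.79% of all tested genes lower.

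Of 31 genes of the granule membrane and of granule biogenesis, 26 had reads and 11 were tested. The mean was lower in 6, higher in 3 and equal in 2, with a median difference of −0.33 against 0 over all genes tested. *Ptprn*, a receptor-type phosphatase-like protein of the granule membrane, stood at 5 in CTR and at 4, 5 and 4 in NPM1 KD. *Slc18a2*, the vesicular monoamine transporter, stood at 5, 5 and 4 in CTR and at 4 in each NPM1 KD library. *Rab2a*, a small GTPase of granule maturation, stood at 6, 5 and 6 in CTR and at 5 in each NPM1 KD library. Each of these 3 had a difference of −0.67 (adjusted p = 0.33 by limma) and overlapped between the groups. *Ccdc186*, which acts in granule maturation, had a difference of the same size in the other direction, with 3 in each CTR library and 4, 4 and 3 in NPM1 KD (0.67, adjusted p = 0.47 by limma). None of the list was called by limma, while by unadjusted p *Ptprn*, *Slc18a2* and *Rab2a* were lower and 0 genes higher. Why this count was one-sided was not tested. *Ccdc186* has a lower mean level, where the fit gave an SE of 0.40 against 0.33 for the other 3. Its unadjusted p by limma was therefore 0.0997 at a difference of the same size.

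Among 17 transcription factors of neuroendocrine and sympathoadrenal cells and their cofactors, 8 were tested and none was called by limma. By unadjusted p, 1 was lower and 1 higher, *Isl1* and *Rest*. *Isl1*, a LIM homeodomain factor of sympathetic neurons, stood at 5 in each CTR and at 4 in each NPM1 KD library (−1, adjusted p = 0.0791 by limma), and it was called under the same alternatives as *Npy*. *Rest*, the repressor of neuronal genes, was 4 in all CTR libraries, with NPM1 KD values of 5, 5 and 4 (0.67, adjusted p = 0.33 by limma). *Gata2* was 5 and *Crtc2*, a CREB coactivator, 4 in all libraries but NPM1 KD replicate 1, where each was 1 lower. *Atf1*, a CREB relative, stood at 4 throughout, and *Creb1* was below the filter with a mean normalized count of 9.62.

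**Figure D4:**
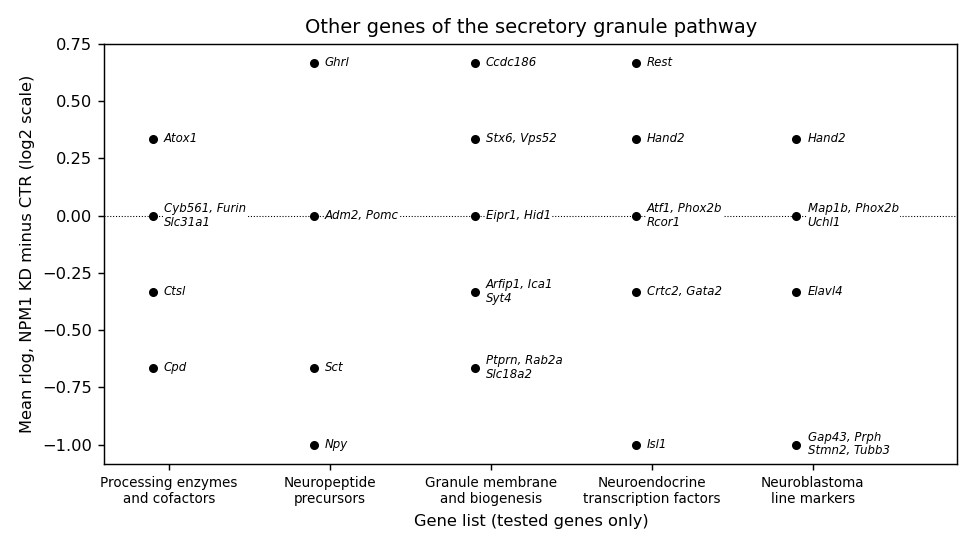
Difference of mean rlog, NPM1 KD minus CTR (log2 scale, n = 3 per group), for the tested genes of the 4 lists and of the line markers. Each point stands for the genes written beside it, and differences run from −1 (*Npy*, *Isl1*, *Prph*, *Stmn2*, *Tubb3* and *Gap43*) to 0.67 (*Ghrl*, *Ccdc186* and *Rest*), none of them called.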

How the data were processed

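RNA-seq was analysed from 3 CTR and 3 NPM1 KD libraries of N2a cells, grouped by their sample titles. Per the labels, libraries were made with a nanopore PCR barcoding kit. The submitters' processing notes name minimap2, featureCounts, DESeq2 and GRCm39. Versions, annotation and strand setting are not given in the sources used here, and the reads were not analysed.

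The deposited rlog values are a score on the log2 scale for each gene in each library, which the authors had normalized for library size. All 75364 values of 1 or more in size were whole numbers. The log2 of the authors' mean normalized count minus the mean rlog value had a median of 0.039, which points to rounding to the nearest number. From the authors' comparison only the mean normalized count was used, and its fold changes and p-values were not. Of 26913 rows, 257 repeated a gene ID and were dropped.

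Genes whose rlog values averaged log2 of 10 (3.32) or more were fitted with limma 3.58.1 in R 4.3.3 (intensity trend, variance within groups not below 0.0833, two-sided, Benjamini-Hochberg over all genes tested, threshold 0.05), after a check on simulated data. That variance is what rounding adds. The members, the lists and this setting were chosen with earlier results of these data known. Named from each list were called genes and up to 4 with the largest differences; *Pcsk2*, *Creb1*, *Atf1* and the genes sharing a pattern with *Chgb* or *Chga* were named besides. Gaps between libraries smaller than the rounding are invisible. With the variance limit and the trend, the SE followed the mean level of a gene and not its own spread. *Npy*, without spread in either group, and *Sct*, with an SD of 0.58 in NPM1 KD, both had an SE of 0.33. The p-values therefore rest on the limit and the trend, and the libraries may be technical replicates. Alternatives were other filters, no variance limit, no trend, centred libraries, a replicate block and leaving out each library. Levels were not divided by gene length and are not ranked between genes.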

Additional observations from a re-analysis of the deposited data

How the results depend on the processing

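The number of genes called over the whole table depended on the fit. Against 24 lower and 4 higher, limma called 178 lower and 123 higher without a lower limit on the variance, 218 and 132 without the trend, 10 and 1 without a filter on low values, and 14 and 3 among genes averaging 6 or more. Leaving out any one of the 6 libraries gave 5 to 9 lower and 0 to 2 higher. Among the lists, *Npy* and *Isl1* (1 gene lower in each list) were called without the variance limit and without the trend, as were the 4 line markers *Prph*, *Stmn2*, *Tubb3* and *Gap43*. In no other alternative was a gene of these lists called. The replicate numbers were not taken as pairs because no methods text says that they pair the libraries. Deviations of same-numbered libraries had correlations of 0.009, 0.001 and 0.03. Values rounded so that 40.2% of tested genes have one value throughout cannot decide whether the libraries were paired. With the replicate block, 7 genes were lower and 1 higher, and 0 of the lists. CTR replicate 1 correlated best with NPM1 KD replicate 2 (0.025) and CTR replicate 2 with NPM1 KD replicate 3 (0.007). CTR replicate 3 correlated best with its own number (0.03), and all these values are near 0.

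For the granin and processing genes, the median difference was −1 over those averaging 6 or more, −0.48 with centred libraries and −0.75 to −0.42 when 1 library was left out. Without overlap, 3 to 4 were lower when 1 library was left out, *Scg3* being added without NPM1 KD replicate 1. With centred libraries 2 (*Vgf* and *Cpe*) were higher without overlap, because centring parts values that are equal as deposited. The difference stayed between −2 and −1.5 for *Chgb* and between −1.5 and −1 for *Chga* when 1 library was left out. The span of 1 on either side from rounding is wider than the counting error of each of these genes.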

Other observations

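Among markers listed for other endocrine tissues, *Gh*, the growth hormone gene, stood at an rlog value of 5 throughout the 6 N2a libraries, with a mean normalized count of 34.8. The other 5 genes of that list, among them *Prl* and the pituitary factor *Pou1f1*, were at 0 in every library. In the GENCODE annotation of GRCm38 no exon of another gene overlaps *Gh*. It was among the genes tested, with a difference of 0.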
